A study of Mus musculus with 2 samples.

Results

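EphB receptors and ephrin-B ligands form a small family of cell surface proteins, measured here at the RNA level in the mouse embryonic hindbrain. The members were taken by gene symbol and number 8 of the 43346 Ensembl genes in the deposited tables, namely the ligand genes Efnb1, Efnb2 and Efnb3 and the receptor genes Ephb1, Ephb2, Ephb3, Ephb4 and Ephb6. All 8 reached a TPM of 1 (a level corrected for transcript length and library size) in both libraries, as did 15342 Ensembl genes in all. The study sequenced total RNA from healthy hindbrain of strain B6NCrl embryos at embryonic day 13.5, male and female pooled, and its labels name no mutation and no treatment. There were 2 libraries in 1 group, labelled as biological replicates 2 and 1, each from 10 ng of RNA longer than 200 nt. Their donor label is shared while their biosample labels are not, so part of the spread between the libraries may be technical, and the design holds no contrast between conditions.

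Ephrin-B proteins span the membrane and are bound by EphB receptor tyrosine kinases on a neighbouring cell. Binding starts forward signalling through the receptor's kinase and reverse signalling through the ligand's cytoplasmic tail, which ends in a motif bound by PDZ domain proteins. In the hindbrain, Eph receptors and ephrins are known for keeping the cells of adjacent rhombomeres apart and, later, for guiding axons at the midline.

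Replicate 2 held 38756411 estimated counts and replicate 1 held 33080194. The 5 hindbrain markers reported here were all detected, from Meis1 at 173.0 ± 0.325 TPM to Hoxa2 at 33.38 ± 0.721 TPM (SD, n = 2), with a sum of 465.6 TPM in replicate 2 and 442.0 TPM in replicate 1. Of 6 forebrain markers, 5 stayed under 1 TPM in both libraries, the lowest being Emx1 at 0.055 ± 0.0212 TPM, and Lhx2 reached 18.59 ± 0.856 TPM. The RNA also held markers of blood vessels, mesenchyme, choroid plexus, ganglia and red blood cells, so fewer cells of a type and less RNA per cell cannot be told apart.

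The coding sequences show what the family members have in common and where their transcripts part. The last 34 codons of the 3 ligands, stop codon included, are printed because they encode the end of the cytoplasmic tail, the part that PDZ proteins bind; capitals mark the positions at which the ligands are not all the same. The stretches lie at chrX:99147426-99147527 (plus strand) for Efnb1, chr8:8620588-8620689 (minus strand) for Efnb2 and chr11:69555860-69555961 (minus strand) for Efnb3, in GENCODE M21 on GRCm38.
Efnb3: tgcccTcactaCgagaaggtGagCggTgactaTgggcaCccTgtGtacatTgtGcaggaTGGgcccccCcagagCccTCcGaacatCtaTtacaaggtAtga
Efnb1: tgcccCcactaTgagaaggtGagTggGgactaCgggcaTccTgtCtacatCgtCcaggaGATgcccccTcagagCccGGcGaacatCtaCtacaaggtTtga
Efnb2: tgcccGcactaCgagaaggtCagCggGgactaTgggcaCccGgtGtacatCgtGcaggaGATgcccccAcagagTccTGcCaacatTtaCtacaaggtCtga
In this stretch 80 positions were the same in all 3 ligands and 22 were not, and 19 of those 22 fell on the third place of a codon. Pairwise identity was 83.3% to 85.3% in the stretch and 61.3% to 64.0% in the coding sequence before it. Between the 5 receptors, pairwise identity over the leading coding sequences ran from 62.2% for Ephb3 and Ephb6 to 73.5% for Ephb1 and Ephb2.

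Ephb1 is shown at 2 places because its annotated transcripts encode different proteins and all 3 were estimated above 1 TPM. The exon-skipped form (ENSMUST00000085169.7) lacks a whole coding exon of 123 bases at chr9:101984082-101984204 (minus strand), in capitals in the long form (ENSMUST00000035129.9), each with 30 bases on either side as spliced.
Ephb1 long form: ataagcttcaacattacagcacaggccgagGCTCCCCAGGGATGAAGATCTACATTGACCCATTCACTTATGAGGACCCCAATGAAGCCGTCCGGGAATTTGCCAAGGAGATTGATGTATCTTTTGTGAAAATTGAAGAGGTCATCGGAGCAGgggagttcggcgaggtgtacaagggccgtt
Ephb1 exon-skipped form: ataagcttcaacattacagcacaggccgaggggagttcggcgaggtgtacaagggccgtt
The coding sequence of the short form (ENSMUST00000149800.2) runs past the end of an exon into chr9:102040938-102041011 (minus strand), which is intronic in the long form, and stops there. The 74 bases of its own, in capitals, follow 30 shared bases, and its open reading frame has 456 codons against 984 in the long form.
Ephb1 short form: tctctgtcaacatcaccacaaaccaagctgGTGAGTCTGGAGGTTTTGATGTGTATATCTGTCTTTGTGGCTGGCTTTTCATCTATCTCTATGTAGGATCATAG
Ephb1 long form at the same coding positions: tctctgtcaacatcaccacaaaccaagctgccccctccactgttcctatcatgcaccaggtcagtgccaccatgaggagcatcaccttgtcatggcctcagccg

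Ephb2 and Ephb4 have smaller alternative blocks. An Ephb2 transcript (ENSMUST00000059287.9) has 3 extra coding bases at chr4:136675531-136675533 (minus strand) and an Ephb4 transcript (ENSMUST00000111055.4) has 27 at chr5:137362363-137362389 (plus strand), both in capitals beside the main transcripts without them (ENSMUST00000105845.4 and ENSMUST00000061244.10). They are shown because the levels given further on differ between the forms.
Ephb2 with 3 bases: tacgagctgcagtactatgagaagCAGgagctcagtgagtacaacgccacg
Ephb2 main: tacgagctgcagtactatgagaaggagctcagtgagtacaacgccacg
Ephb4 with 27 bases: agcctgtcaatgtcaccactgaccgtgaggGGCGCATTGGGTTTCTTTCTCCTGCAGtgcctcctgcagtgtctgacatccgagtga
Ephb4 main: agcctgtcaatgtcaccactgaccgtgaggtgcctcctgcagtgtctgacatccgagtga
The annotation also holds an Ephb2 transcript with 3 extra bases further downstream, at chr4:136672508-136672510, and an exon-skipped Ephb4 transcript, which lacks a whole exon of 156 coding bases at chr5:137372385-137372540. Each of these blocks in Ephb2 and Ephb4 is a multiple of 3 bases long.

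**Figure D1:**
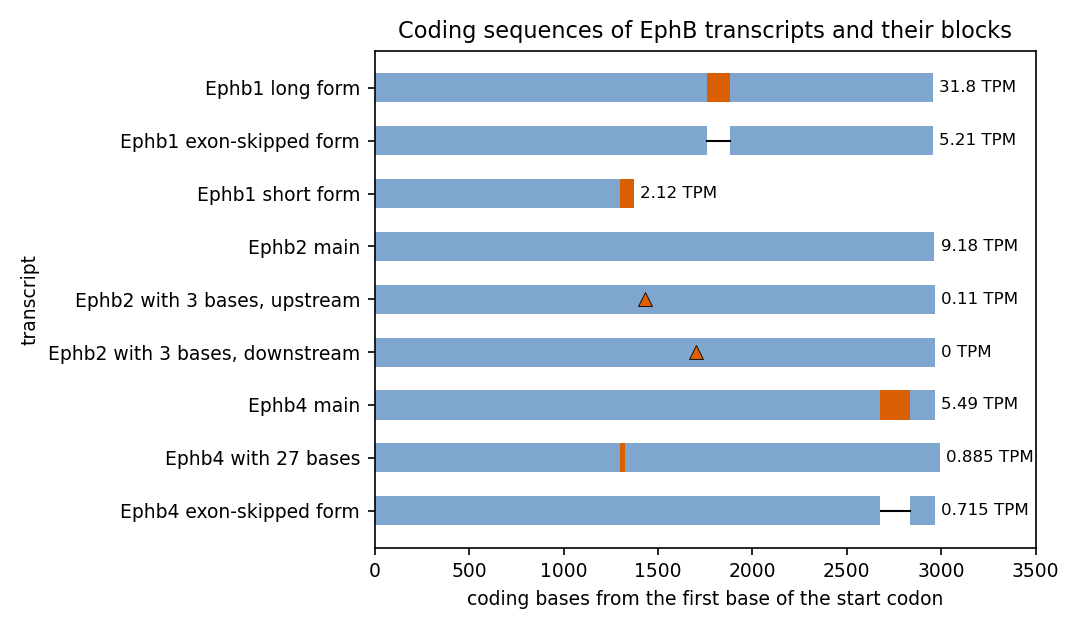
Coding sequences of Ephb1, Ephb2 and Ephb4 transcripts in bases from the start codon, drawn to scale, with the mean TPM of the 2 libraries at the right. Orange marks a block that another transcript of the gene lacks, a thin line marks its absence, and triangles mark 3-base blocks, which are too short to draw; the short form of Ephb1 stops after 1371 bases while the long form has 2955.

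Among the ligands, Efnb3 was the highest gene of the family, and Efnb1 and Efnb2 lay far below it. Efnb3 (chr11:69554092-69560205, minus strand) encodes ephrin-B3, known in mice as a midline barrier to corticospinal axons. It had 73.20 TPM in replicate 2 and 74.98 TPM in replicate 1, a mean of 74.09 ± 1.26 (SD, n = 2), on 5507 counts in replicate 2 and 4776 in replicate 1. The libraries lay close together, and 84.6% of detected genes were lower.

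Efnb1 (chrX:99136130-99148991, plus strand) encodes ephrin-B1, a ligand with a role in neural crest and craniofacial development. It had 26.80 TPM in replicate 2 and 21.67 TPM in replicate 1, a mean of 24.23 ± 3.63, on 2006 counts in replicate 2 and 1414 in replicate 1. Efnb2 (chr8:8617434-8661242, minus strand), which encodes the ligand of even-numbered rhombomeres and of arteries, had 20.15 TPM in replicate 2 and 16.56 TPM in replicate 1, a mean of 18.35 ± 2.54, on 2024 counts in replicate 2 and 1428 in replicate 1. Both genes were higher in replicate 2, and their credibility intervals, as deposited, did not overlap between the libraries.

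Among the receptors, Ephb1 was the highest and Ephb4 the lowest. Ephb1 (chr9:101922128-102354693, minus strand) encodes a receptor known for steering ipsilateral retinal axons at the optic chiasm. It had 36.48 TPM in replicate 2 and 41.71 TPM in replicate 1, a mean of 39.09 ± 3.70, on 3935 counts in replicate 2 and 3821 in replicate 1. It was the only receptor whose intervals did not overlap between the libraries, and it was lower in replicate 2. Ephb1 shares its locus with genes on both strands, the most counted being Gm26846, a long noncoding RNA on the opposite strand, with 181 counts in replicate 2 and 194 in replicate 1. The strand setting of the counting is not given in the sources used here, so reads of overlapping genes are uncertain.

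Ephb6 (chr6:41605482-41620509, plus strand) encodes the member whose kinase domain is inactive. It had 23.06 TPM in replicate 2 and 24.05 TPM in replicate 1, a mean of 23.55 ± 0.70, on 1754 counts in replicate 2 and 1522 in replicate 1. Its library range lay within that of Efnb1, so the order of these 2 genes is not resolved: Efnb1 was higher in replicate 2 and Ephb6 was higher in replicate 1.

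Ephb2 (chr4:136647539-136835988, minus strand) and Ephb3 (chr16:21204755-21223305, plus strand) encode receptors known for guiding commissural axons of the forebrain together. Ephb2 had 13.38 TPM in replicate 2 and 12.12 TPM in replicate 1, a mean of 12.75 ± 0.891, on 2690 counts in replicate 2 and 2159 in replicate 1. Ephb3 had 10.70 TPM in replicate 2 and 11.67 TPM in replicate 1, a mean of 11.18 ± 0.686, on 1030 counts in replicate 2 and 979 in replicate 1. The library ranges of Ephb2 and Ephb3 did not overlap, but their credibility intervals did in replicate 1.

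Ephb4 (chr5:137350109-137378669, plus strand) encodes the venous receptor of ephrin-B2. It had 7.52 TPM in replicate 2 and 7.68 TPM in replicate 1, a mean of 7.60 ± 0.113, and only 33.1% of detected genes were lower. On 774 counts in replicate 2 and 645 in replicate 1, its CPM (a count corrected for library size alone) was 19.97 in replicate 2 (exact 95% interval 18.59 to 21.43) and 19.5 in replicate 1 (18.02 to 21.06). These were the fewest counts of any member, and such intervals cover counting error only. Apart from Efnb1 and Ephb6, no neighbours in the order of the 8 levels overlapped between their library ranges.

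**Figure D2:**
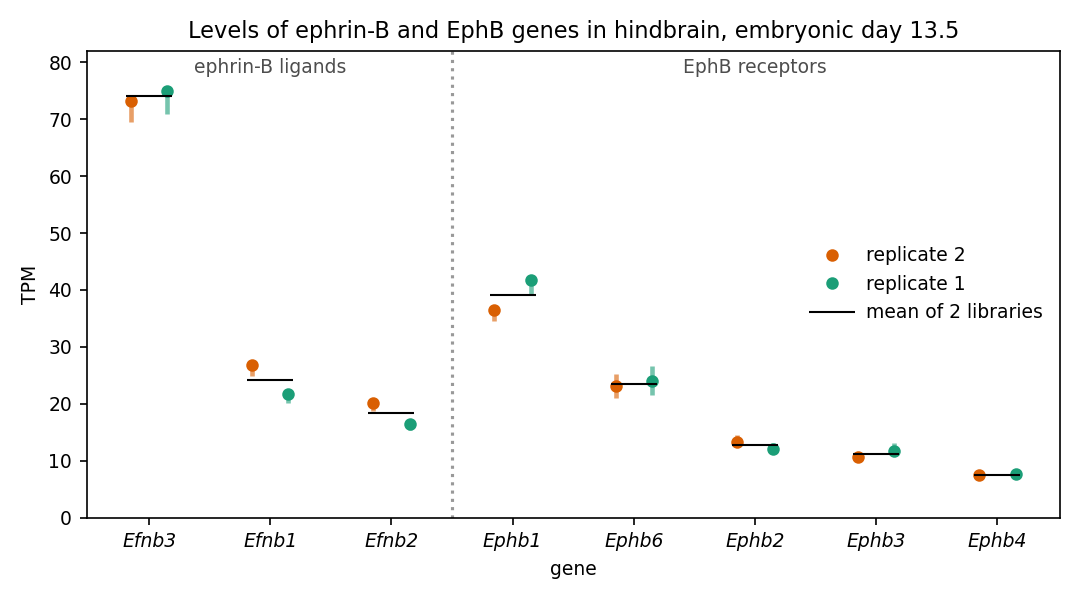
TPM of the 3 ephrin-B ligand and 5 EphB receptor genes. Points are the 2 libraries, vertical bars their deposited credibility intervals and horizontal lines the means; Efnb3 stands at 73.20 TPM in replicate 2 and 74.98 TPM in replicate 1, and Ephb4 at 7.52 TPM in replicate 2 and 7.68 TPM in replicate 1.

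Set against the receptors, the ligand genes carried more RNA per length. Their summed level was 120.2 TPM against 91.14 TPM for the receptors in replicate 2, and 113.2 TPM against 97.23 TPM in replicate 1. The ratio of the sums was 1.318 in replicate 2 and 1.164 in replicate 1, a mean of 1.241 ± 0.109 (SD, n = 2). The medians of log2(TPM + 1) differed by 0.87 ± 0.115, the ligands being higher in both libraries. Efnb3 alone made 60.9% of the ligand sum in replicate 2 and 66.2% in replicate 1, and Ephb1 made 40.0% of the receptor sum in replicate 2 and 42.9% in replicate 1. On CPM values, which are not divided by length, the ratio of the sums was 0.886, below 1. The difference of the medians was 0.0562, a mean of 2 libraries that differed in sign. The median ligand was Efnb2, at 52.22 CPM in replicate 2 and 43.17 CPM in replicate 1. The median receptor was Ephb6, at 45.26 CPM in replicate 2 and 46.01 CPM in replicate 1. The sums set 3 ligand genes against 5 receptor genes. With 2 libraries of 1 group no test of this difference was made.

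Transcript estimates put most of each gene on 1 transcript. Over 8343 genes with 2 or more transcripts and a mean of at least 5 TPM, the leading transcript carried a median of 66.8% of the gene's TPM, with quartiles at 48.8% and 87.8%. Efnb3 has 1 annotated transcript. The main transcript carried 98.14 ± 2.63% of Efnb1, 97.87 ± 1.12% of Efnb2 and 94.47 ± 0.389% of Ephb3 (SD, n = 2). Of the 27 transcripts of the family, 12 reached 1 TPM in both libraries.

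For Ephb1, the long form had 29.20 TPM, or 80.03% of the gene, in replicate 2 and 34.36 TPM, or 82.38%, in replicate 1. The exon-skipped form, without the 123-base exon, had 5.30 TPM in replicate 2 and 5.11 TPM in replicate 1. It made 15.4% of the sum of the exon-skipped and long forms in replicate 2 and 12.9% in replicate 1. Its credibility intervals were wide, from 2.54 to 8.08 TPM in replicate 2 and from 0.643 to 8.45 TPM in replicate 1. The share of the exon-skipped form is therefore loosely set. The short form had narrower intervals, at 1.99 TPM (1.43 to 2.54) in replicate 2 and 2.24 TPM (1.58 to 2.84) in replicate 1. Its shares were 5.44% in replicate 2 and 5.36% in replicate 1. The end of its coding sequence is intronic in the long form, and whether its reads came from unspliced RNA was not tested.

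For Ephb2, the form without either 3-base block dominated the 3 transcripts with a complete coding sequence. It had 9.32 TPM in replicate 2 and 9.03 TPM in replicate 1, and made 98.8 ± 1.63% of the sum of the 3 forms. The forms also differ in length, with 4804 bases for the one with the upstream block and 3653 for the one with the downstream block, against 10902. Whether the blocks or other parts of the transcripts set this share was not tested. The form with the upstream block had 0.22 TPM in replicate 2 and was listed at 0 in replicate 1, and the form with the downstream block was listed at 0 in both. A transcript annotated as a retained intron had 3.39 TPM in replicate 2 and 2.81 TPM in replicate 1, which is 24.23 ± 1.53% of the gene by TPM. Whether the reads of this transcript came from unspliced RNA was not tested. By counts the main transcript held 92.36% of the gene; it is 10902 bases long and the retained intron transcript 2519.

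The split of Ephb4 differed most between the libraries. The main transcript had 6.50 TPM, or 86.42% of the gene, in replicate 2 and 4.47 TPM, or 58.25%, in replicate 1, with overlapping intervals. A transcript with the same coding sequence (ENSMUST00000166239.3) was listed at 0 in replicate 2 and had 1.02 TPM in replicate 1. With a further transcript of that coding sequence, listed at 0 in both libraries, they made 86.4% of the gene in replicate 2 and 71.5% in replicate 1. The transcript with the 27-base block had 0.80 TPM in replicate 2 and 0.97 TPM in replicate 1. The exon-skipped transcript had 0.22 TPM, or 2.95% of the gene, in replicate 2 and 1.21 TPM, or 15.78%, in replicate 1, with overlapping intervals. The main transcript of Ephb6 carried 82.62 ± 1.23% of its gene, and the rest was mainly a fragment 459 bases long with an incomplete coding sequence, at 3.81 TPM in replicate 2 and 4.03 TPM in replicate 1. That level rested on 33.44 estimated counts in replicate 2 and 29.95 in replicate 1, and by counts the main transcript held 97.91% of the gene.

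**Figure D3:**
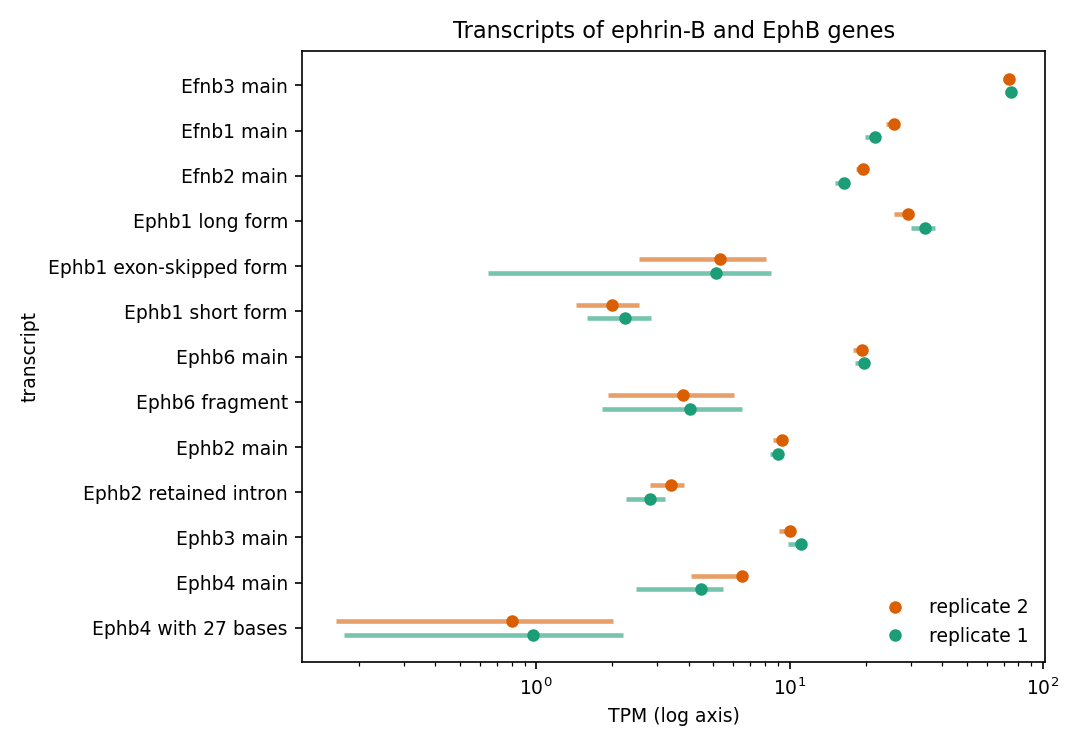
TPM, on a log axis, of the 13 transcripts that reached 1 TPM in both libraries or 10% of their gene on average. Points are the 2 libraries and bars their deposited credibility intervals, which are widest on this axis for the Ephb1 exon-skipped form and the Ephb4 form with 27 bases; a point can lie outside its bar because the interval surrounds the posterior mean.

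Among 58 receptor tyrosine kinases, of which 51 were detected and whose median was 9.0 TPM, the EphB receptors were spread over the upper and middle ranks and made 10.1% of the summed TPM. The 3 highest were Ddr1, a collagen receptor, at 107.9 ± 6.63 TPM, and the ephrin-A receptors Epha7 at 65.91 ± 1.46 TPM and Epha5 at 56.3 ± 1.38 TPM (SD, n = 2). Ephb1 ranked 6, between the stem cell factor receptor Kit at 39.45 ± 4.33 TPM and the BDNF receptor Ntrk2 at 35.78 ± 1.41 TPM. Ephb6 ranked 14, between the fibroblast growth factor receptor Fgfr2 at 25.1 ± 4.53 TPM and Epha3 at 22.36 ± 3.59 TPM. The library ranges of these neighbours overlapped with those of the 2 EphB receptors.

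Ephb2 ranked 26, between the macrophage receptor Csf1r at 13.84 ± 1.28 TPM and the neuregulin receptor Erbb4 at 11.7 ± 0.962 TPM, and Ephb3 ranked 28, between Erbb4 and the vascular endothelial growth factor receptor Flt1 at 9.07 ± 0.467 TPM. Ephb4 ranked 33, between the collagen receptor Ddr2 at 8.745 ± 1.75 TPM and Erbb2 at 7.465 ± 0.856 TPM. Of these neighbours, only Flt1 lay outside the library range of the EphB receptor beside it. Epha4, a receptor of odd-numbered rhombomeres that also binds ephrin-B ligands, had 29.87 TPM in replicate 2 and 31.60 TPM in replicate 1. That puts it between Ephb1 and Ephb6.

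**Figure D4:**
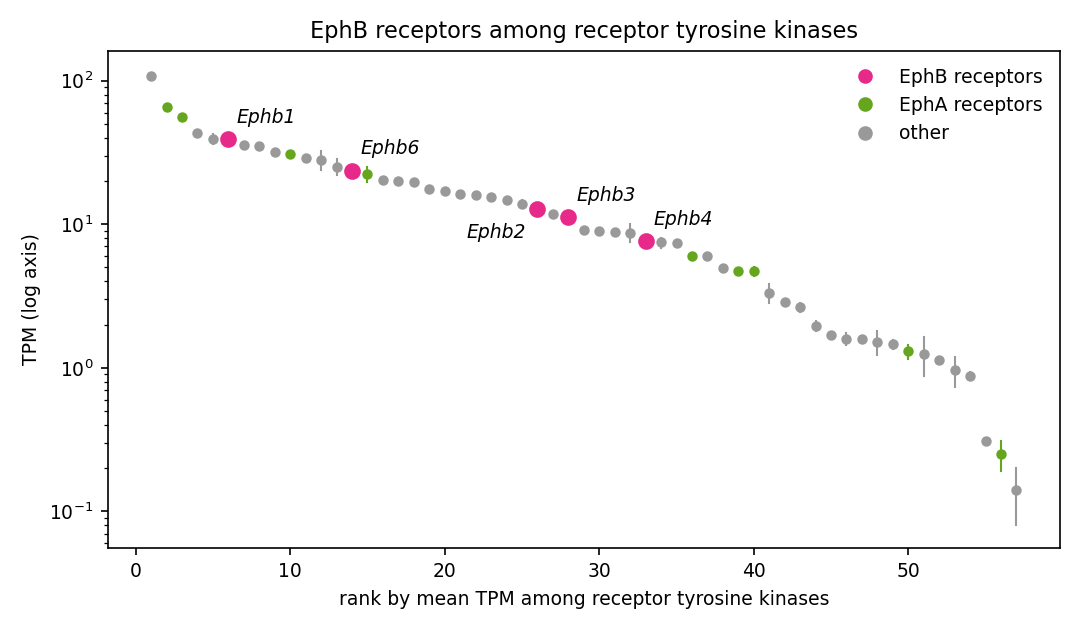
Mean TPM of the 2 libraries, on a log axis, against rank among 58 receptor tyrosine kinases; lines span the 2 libraries. EphB receptors rank 6, 14, 26, 28 and 33, and Ros1, listed at 0 TPM, is left off the log axis.

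Genes that act beside the family were detected almost throughout. Of 23 genes of forward signalling, 22 were detected, with a list median of 23.36 TPM, beside a median of 3.175 TPM over the 25551 Ensembl genes with a count and 16.08 TPM over all detected genes. The highest were Cfl1, which severs actin filaments, at 2446 ± 11.0 TPM, the adaptor Grb2 at 148.2 ± 6.72 TPM and the kinase Pak1 at 99.14 ± 0.445 TPM, and the lowest was the adaptor Grb7 at 0.24 ± 0.0849 TPM. All 12 genes of reverse signalling and PDZ binding were detected, with a median of 33.01 TPM. They ran from Sdcbp, the PDZ protein syntenin, at 236.8 ± 4.91 TPM, the junction protein Afdn at 105.1 ± 6.65 TPM and the PDZ protein Pick1 at 71.66 ± 4.09 TPM down to the scaffold Grip2 at 3.535 ± 0.177 TPM.

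Of 9 genes for shedding and cleavage of ephrins and Eph receptors, 8 were detected, with a median of 22.63 TPM. The highest were the gamma-secretase subunits Psenen at 111.2 ± 3.20 TPM and Ncstn at 100.2 ± 6.30 TPM and the metalloprotease Adam10 at 60.09 ± 0.728 TPM. Rhbdl2, a rhomboid protease that cuts ephrin-B proteins, was lowest at 0.725 ± 0.346 TPM.

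Between the 2 libraries, 3 of the 8 family members differed by more than counting error in a two-sided exact binomial test with Benjamini-Hochberg adjustment over 19687 genes; the test compares libraries, not conditions. Efnb1 and Efnb2 were higher in replicate 2, by 1.22-fold each, with exact 95% intervals of 1.14 to 1.3 for both (adjusted p = 5.8e-07 for Efnb1 and 5.6e-07 for Efnb2, exact binomial). Ephb1 was lower in replicate 2, at 0.884-fold (0.846 to 0.925, adjusted p = 2.8e-06, exact binomial). Over all genes tested, 12.6% were called, 7.07% higher and 5.49% lower in replicate 2, and 14.4% were called among the 7201 genes with counts in the range of the members. With 8 members, a count of 3 called is not read as particular to the family.

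The other 5 members did not pass the test. The 95% intervals of their ratios are not adjusted for the number of genes tested. Those of Ephb2 and Ephb3 exclude equal levels, though their adjusted p was 0.11 and 0.13 (exact binomial). The interval of the ratio of replicate 2 over replicate 1 ran from 0.952 to 1.03 for Efnb3, from 0.923 to 1.06 for Ephb6, from 1.01 to 1.13 for Ephb2, from 0.827 to 0.987 for Ephb3 and from 0.927 to 1.15 for Ephb4. Credibility intervals were disjoint between the libraries for the same 3 members that were called, beside 10.5% of the 11500 genes with a mean of at least 5 TPM. Of the genes tested at that level, the median difference was 1.05-fold and 6.8% exceeded 1.2-fold in either direction.

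Markers of other tissues moved between the same libraries. Choroid plexus markers had a sum of 1129 TPM in replicate 2 and 583.0 TPM in replicate 1, with all 5 of 5 called higher in replicate 2, from Ttr at 777.4 ± 346 TPM to Clic6 at 6.635 ± 3.84 TPM. Mesenchyme markers had a sum of 515.6 TPM in replicate 2 and 681.9 TPM in replicate 1, all 6 of 6 lower and 4 called, from Col3a1 at 253.0 ± 34.3 TPM to Twist1 at 2.135 ± 0.233 TPM. Endothelial markers had a sum of 166.6 TPM in replicate 2 and 159.1 TPM in replicate 1, with 4 of 6 higher and 1 called, from Cldn5 at 73.89 ± 3.95 TPM to Tek at 7.43 ± 0.283 TPM. Their part in the differences of Efnb1, Efnb2 and Ephb1 was not tested.

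Markers of neural cells and of blood also differed between the libraries. Progenitor markers had a sum of 2870 TPM in replicate 2 and 2615 TPM in replicate 1, with 4 called higher and 2 lower in replicate 2, from Fabp7 at 1915 ± 180 TPM to Sox2 at 12.85 ± 1.27 TPM. Neuron markers had a sum of 3801 TPM in replicate 2 and 3962 TPM in replicate 1, with 1 called higher and 4 lower, from Tubb3 at 1509 ± 48.1 TPM to Elavl3 at 50.05 ± 0.00707 TPM. Ganglion and neural crest markers, from Pou4f1 at 67.86 ± 0.509 TPM to Scn10a at 1.27 ± 0.156 TPM, had a sum of 172.0 TPM in replicate 2 and 167.2 TPM in replicate 1, with 1 called higher in replicate 2 (Prph, 1.26-fold). The 5 red blood cell markers reported here, from Hba-a2 at 5156 ± 310 TPM to Alas2 at 21.2 ± 1.65 TPM, had a sum of 12310 TPM in replicate 2 and 11370 TPM in replicate 1. All 5 of 5 were called higher in replicate 2. No marker of these lists was at 0 in both libraries, and their part in the members' differences was not tested.

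Of the 44 genes tested in the 3 partner lists, 9 were called between the libraries (20.5%), 5 higher and 4 lower in replicate 2, beside 12.6% of all genes tested. The called genes are named here after their values were seen. In forward signalling, 1 gene was called higher (Vav2) and 2 lower (Grb2 and Abl2) in replicate 2. In reverse signalling the 3 calls were all higher (Nck2, Ptpn13 and Stat3), and in shedding 1 was called higher (Mmp9) and 2 lower (Ncstn and Mmp2). The calls rest on counts: Stat3 was 1.16-fold higher by counts, but its TPM was 42.82 in replicate 2 and 42.47 in replicate 1. None of these 9 differed by 1.5-fold, the furthest upward being Ptpn13 at 1.19-fold (adjusted p = 0.016, exact binomial) and the furthest downward Mmp2 at 0.871-fold (adjusted p = 0.0028, exact binomial).

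**Figure D5:**
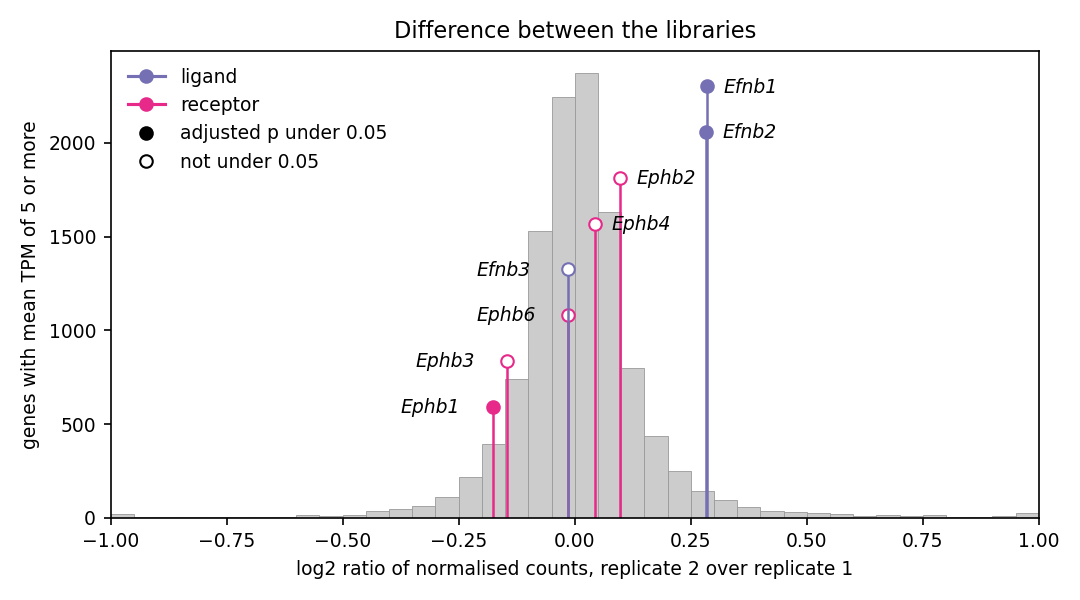
Log2 ratio of normalised counts, replicate 2 over replicate 1, for genes with a mean of at least 5 TPM (grey bars) and for the 8 members (stems, whose heights carry no value). Efnb1 and Efnb2 stand at 0.285 and 0.283 and Ephb1 at -0.177; genes beyond 1 in either direction are counted in the end bars.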

How the data were processed

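Total RNA-seq of 2 hindbrain libraries was analysed from gene and transcript tables. The estimated counts (expected counts) were deposited by the authors per gene and transcript. The authors deposited TPM, FPKM and a posterior mean TPM, scaled over every row of a table, the spike-ins among them. The percent of a gene's TPM on each transcript and the bounds of credibility intervals, whose level is not stated, were also deposited by the authors. Per the deposited notes, the build was mm10 and the annotation GENCODE M4; for the aligner, the counter, their versions and the strand, the sources used here give nothing. Spike-ins held 2.54% of counts in replicate 2 and 2.31% in replicate 1.

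Names, positions and sequences came from GENCODE M21 (GRCm38, which is mm10); 26 of the 27 member transcripts had the same length in both annotations, the exception being the main transcript of Efnb2. The partner, kinase and marker lists, like the members, were chosen with earlier results of these data known. Named were all members and their transcripts with at least 1 TPM in both libraries or 10% of the gene, the 3 highest and the lowest gene of each partner list, and any called listed gene differing 1.5-fold. Also named were the 3 highest kinases, the neighbours of each member in rank, and the highest and lowest of each marker list. In the hindbrain and red blood cell lists, 1 marker each is not reported here and was left out of the counts and sums.

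Detected means at least 1 TPM in both libraries. Counts were rounded, scaled with edgeR 4.0.16 (TMM) and tested with SciPy 1.17.1 where a gene had 10 or more counts over both libraries, at an adjusted p of 0.05. A quasi-likelihood test of the 2 libraries against each other would leave no replicates to estimate spread from. The common biological coefficient of variation was 6.142%, which the binomial test does not include. It was checked on simulated counts without such spread. A first run drew the changed genes from 20 counts up and missed the recovery asked for. The run that met it drew them from 300 counts up, which every member exceeds, so the check holds for well-counted genes only. The recovery asked for was of changes larger than those of the called members, so it does not cover calls of their size. Alternatives were other scalings (DESeq2 1.42.0 size factors, spike-ins, totals), filters, pseudocounts, measures and each library alone. The backgrounds limited to the members' count range or to 5 TPM were chosen after seeing the data. Without molecular identifiers, reads need not be independent molecules. Interval levels computed here are 95%.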

Additional observations from a re-analysis of the deposited data

How the results depend on the processing

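No paired analysis was possible because the 2 libraries form 1 group. Over the alternatives run, 151 values kept their direction and side of the threshold or moved by less than their spread. Many of these were fixed in advance and are no check. For levels, leading shares and ligand-receptor measures, each library alone lies within the spread of the 2 libraries by construction. The Efnb3 share, the ratio of sums under rescaled TPM, and the filter on detected members, which every member passed, could not change either. The exceptions follow. With TPM rescaled to the Ensembl genes, every member was higher. Those that moved beyond their spread were Efnb3 at 78.61, Ephb6 at 24.99 and Ephb4 at 8.063 TPM. By posterior mean Efnb3 was 72.22 TPM. On CPM the ratio of summed ligands over receptors was 0.886, a reversal. The median difference on CPM was 0.0562, with unlike signs in the libraries. These counts are not divided by length. FPKM rescaled to the TPM total equals TPM by construction. With spike-ins as library size, the median log2 ratio of genes with at least 5 TPM moved to -0.137, against 0.00498 with TMM, 7946 genes were called against 2472, and Efnb3 (-0.156, adjusted p = 4.9e-07), Ephb6 (-0.157, 0.0067) and Ephb3 (-0.289, 5.5e-05) joined the exact binomial calls; Efnb1 (0.143, 0.014), Efnb2 (0.141, 0.014) and Ephb1 (-0.319, 1.5e-20) remained called. Among members never called, the ratio turned sign with spike-ins for Ephb2 (-0.0447) and Ephb4 (-0.0989), and by log2(TPM + 1) for Ephb4 (-0.0268). By counts the leading share was 83.78% for Ephb1, 92.36% for Ephb2, 96.45% for Ephb3, 97.91% for Ephb6 and 99.72% for Efnb2; by posterior mean it was 90.1% for Ephb3 and 80.28% for Ephb6. Ranks by CPM were 14 for Ephb2, 18 for Ephb6 and 34 for Ephb4, and by posterior mean 35 for Ephb4. In single libraries, ranks ran from 5 to 7 for Ephb1, from 12 to 15 for Ephb6, from 26 to 27 for Ephb2 and from 33 to 34 for Ephb4, and Ephb3 ranked 28 in both. The cause of the posterior mean changes was not tested. The fewest counts of any named transcript were those of the Ephb6 fragment, 33.44 in replicate 2 and 29.95 in replicate 1.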
